A study of Homo sapiens with 9 samples.

Results

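RNA was sequenced from HaCaT cells, human keratinocytes of an immortalised line, after 24 h with 100 µg/ml fragmented polystyrene (fPS 100) or with 25 µg/ml (fPS 25), 3 libraries each, and after 24 h in the same medium with no plastic (control), also 3 libraries. All cells were grown in DMEM with fetal bovine serum, and poly(A)-selected RNA was counted per gene. What the higher dose adds to the lower one was read from the contrast of fPS 100 against fPS 25, 6 of the 9 libraries. All 9 were in the fit, so the control libraries also entered the estimate of spread. The 14551 genes with enough counts were tested, of 31930 symbols with any count in the series. Genes were taken from all symbols other than the nuclear ribosomal RNAs, small RNAs and histone genes, a choice that used no measured value. A filter on counts then left the genes tested, and a gene with counts in a single group could pass it. The choice of symbols was meant for polyadenylated genes, but a list of RNAs without a poly(A) tail still had 6 members among those tested. Levels are in CPM, the usual depth-scaled count, and fold changes are log2 of fPS 100 over fPS 25 with the standard error (SE). A gene was called, and is said to have risen or fallen, at an adjusted p under 0.05 in edgeR's quasi-likelihood test with Benjamini-Hochberg adjustment. The labels describe a single cell line and leave unsaid whether its replicates came from separate cultures. The p-values therefore describe the spread between these libraries alone, which may be technical.

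Keratinocytes form the outer layer of the skin, where they divide in the basal layer, stop dividing as they mature, and release cytokines and chemokines when injured. Polystyrene is a plastic of packaging and foam, and broken into fragments it gives particles of irregular shape. Cells meet foreign matter with several known programmes. KEAP1 and NRF2 control antioxidant enzymes, the aryl hydrocarbon receptor (AhR) controls enzymes that oxidise aromatic compounds, MTF1 controls metallothioneins in answer to zinc, and NF-kB and AP-1 control inflammatory genes. Cell division rests on E2F for the genes of DNA replication and on the DREAM complex, B-MYB and FOXM1 for the genes of mitosis.

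Kept counts were 23.2M to 26.8M in fPS 100 libraries and 16.4M to 23.4M in fPS 25 libraries. A count of 0 allows up to 3 counts, or 0.112 to 0.183 CPM, and such floors cover counting error only, since no molecular identifiers were counted and reads of 1 molecule can repeat. The cells carried the markers of their label: all 8 keratinocyte markers were measured, and summed to 5417 to 7886 CPM in fPS 100, 4781 to 4965 CPM in fPS 25 and 5594 to 5784 CPM in control. Summed markers of melanocytes, fibroblasts, endothelial, immune and neural cells stayed at 20.3 CPM or less in every library, and LUM, KDR, TEK and TYROBP had 0 counts throughout. Nuclear ribosomal RNA took 6.06%, 8.27% and 8.48% of all counts in fPS 100 and had 0 counts in the 6 libraries of fPS 25 and control. The sources used here do not say whether these RNAs were counted the same way in every library, and a difference in counting that followed these libraries could not be told apart from the higher dose. Transcripts of mitochondrial protein genes took 5.34%, 4.62% and 2.09% of kept counts in fPS 100, against 3.61%, 4.27% and 3.72% in fPS 25. Replicate 3 of fPS 100 stood apart, at −40.2 on the second principal component (21.7% of the variance) against 18.4 and 10.1 for replicates 1 and 2 of that group. It lay at least 4-fold above both other fPS 100 libraries for 42 genes, against 1 for replicate 1 and 0 for replicate 2, and 41 of those 42 were not called. The part of these library differences in the results was not tested.

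Between fPS 100 and fPS 25, 1937 genes differed, which is 13.3% of those tested: 870 rose (5.98%) and 1067 fell (7.33%). Of these, 182 rose and 302 fell by at least 2-fold. The median log2 difference was 0.62 over the genes that rose and −0.69 over those that fell, and over all genes tested it was 0.01, with quartiles of −0.19 and 0.22. Counts of list members that follow stand beside these shares over all genes, 5.98% and 7.33%. All 3 fPS 100 libraries lay outside the range of the fPS 25 libraries for 1932 of the called genes, and for 34.8% of all genes tested. Genes named for size or for the smallest adjusted p were taken from these 1932, so their lack of overlap was part of the choice. In the same fit fPS 25 differed from control in 5.35% of genes and fPS 100 from control in 29.9%, comparisons that share libraries with each other and with the one described here. Without 1 of the fPS 25 libraries, the count of calls dropped to 1052 without replicate 1, 989 without replicate 2 and 1087 without replicate 3.

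**Figure D1:**
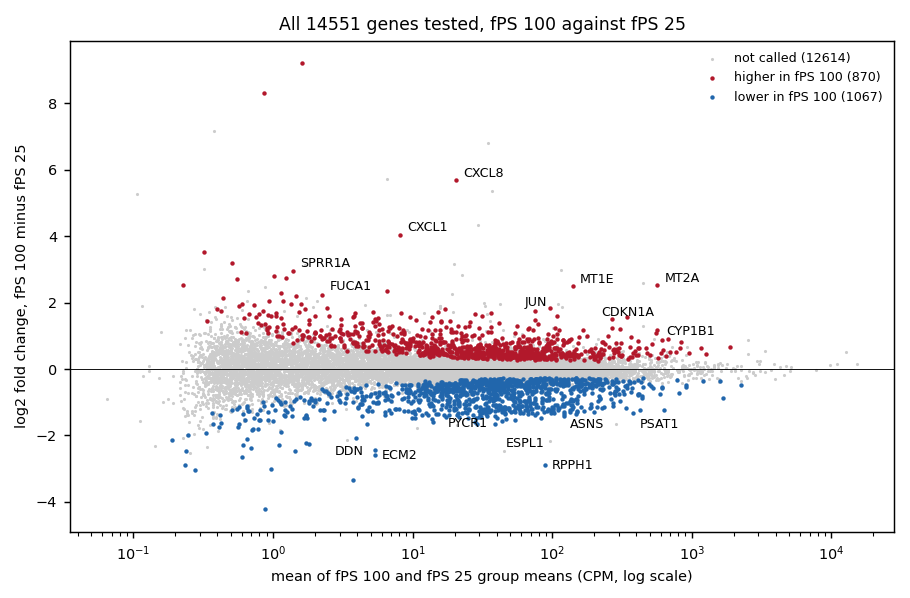
Log2 fold change of fPS 100 over fPS 25 for each of 14551 genes, against the average of the group means in CPM on a log scale. Red points are the 870 genes that rose, blue points the 1067 that fell and grey points the rest, and most called genes lie within a few log2 units of 0, with CXCL8, CXCL1, MT1E and MT2A among the labelled genes far above it.

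**Figure D2:**
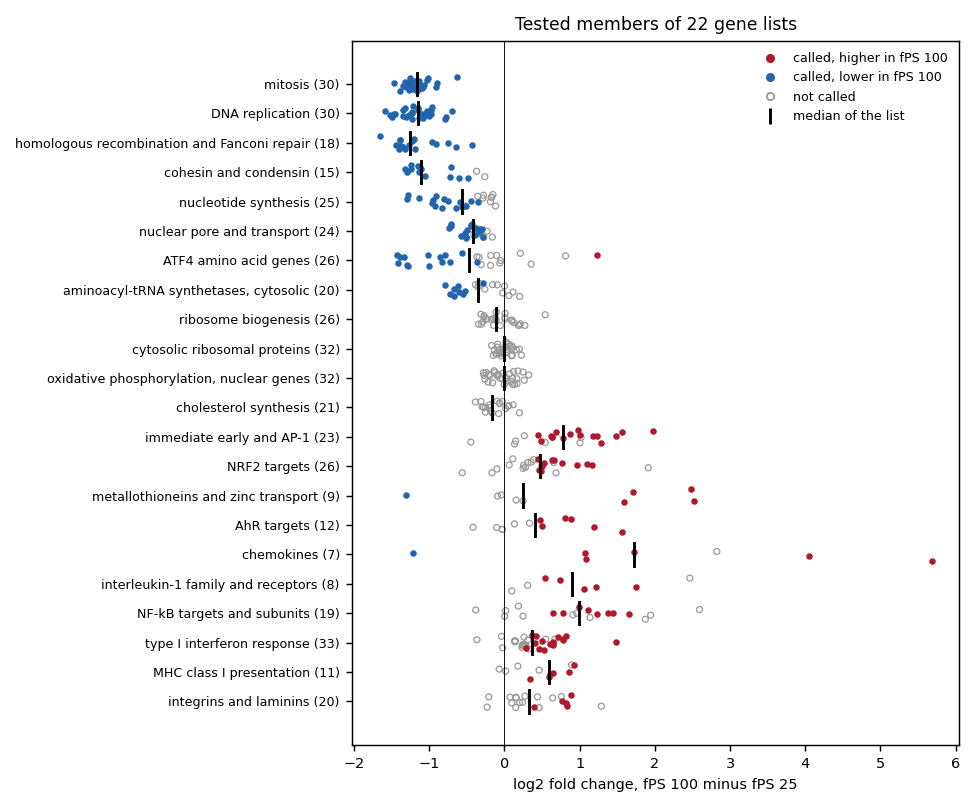
Log2 fold change of fPS 100 over fPS 25 for every tested member of 22 gene lists, with the number tested in brackets and the list's median as a black bar. The mitosis and replication lists lie wholly to the left, ribosomal proteins are centred at −0.01, and the chemokines spread from −1.22 to 5.68.

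Genes of cell division were lower at the higher dose throughout 2 lists. All 30 mitosis genes tested and all 30 DNA replication genes tested fell with the higher dose, where 7.33% of all genes fell, with medians of −1.17 and −1.14 against 0.01 over all genes. Log2 differences ran from −1.47 to −0.63 in the mitosis list and from −1.59 to −0.70 in the replication list. In fPS 25 against control, where 2.21% of all genes fell and 3.13% rose, none of the 30 mitosis genes was called by edgeR and their median was 0.09, while 1 of the 30 replication genes fell and their median was −0.12. Bulk RNA cannot tell fewer cells in division from less of each transcript per dividing cell.

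Promoters of some of these genes are shown because the known regulators of both lists read different letters. Each is the stretch from 250 bases before to 50 bases after the annotated start, from RefSeq on GRCh38.p14, 5′ to 3′ along the gene. Capitals in PLK1 (chr16:23678639-23678938, plus strand) and CDC20 (chr1:43358731-43359030, plus strand) mark TTTGAA, the core of the cell cycle homology region read by the DREAM complex, on either strand. Capitals in CDC6 (chr17:40287629-40287928, plus strand) and MCM2 (chr3:127598161-127598460, plus strand) mark an E2F site, searched as TTTGGCGC, TTTCGCGC or TTTCCCGC on either strand.
PLK1: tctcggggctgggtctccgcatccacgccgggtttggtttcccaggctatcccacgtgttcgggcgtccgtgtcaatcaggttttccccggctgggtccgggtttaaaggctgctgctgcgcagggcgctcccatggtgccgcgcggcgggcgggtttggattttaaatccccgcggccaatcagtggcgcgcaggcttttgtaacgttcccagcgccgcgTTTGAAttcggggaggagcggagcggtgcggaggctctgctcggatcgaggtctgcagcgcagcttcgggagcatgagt
CDC20: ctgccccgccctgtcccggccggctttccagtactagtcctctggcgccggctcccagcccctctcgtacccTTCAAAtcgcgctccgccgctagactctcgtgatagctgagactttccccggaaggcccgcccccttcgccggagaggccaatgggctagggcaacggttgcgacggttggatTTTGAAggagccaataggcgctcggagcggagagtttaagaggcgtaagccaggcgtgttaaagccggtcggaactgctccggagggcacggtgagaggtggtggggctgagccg
CDC6: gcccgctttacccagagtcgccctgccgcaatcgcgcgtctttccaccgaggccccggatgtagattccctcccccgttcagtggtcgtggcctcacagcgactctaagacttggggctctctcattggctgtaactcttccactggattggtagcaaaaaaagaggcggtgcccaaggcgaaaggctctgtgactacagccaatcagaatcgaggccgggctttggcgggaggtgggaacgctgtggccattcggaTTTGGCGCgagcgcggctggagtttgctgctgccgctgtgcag
MCM2: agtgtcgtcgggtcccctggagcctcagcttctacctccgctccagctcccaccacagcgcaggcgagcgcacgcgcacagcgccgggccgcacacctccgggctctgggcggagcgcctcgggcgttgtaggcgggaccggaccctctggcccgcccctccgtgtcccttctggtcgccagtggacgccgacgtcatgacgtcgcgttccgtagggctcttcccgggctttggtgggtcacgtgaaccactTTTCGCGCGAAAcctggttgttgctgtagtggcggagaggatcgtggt

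Of the 30 genes in each list, 24 of mitosis and 26 of replication had a window. TTTGAA stood in such a window of 17 of 24 mitosis genes (70.8%), 0 of 26 replication genes and 18.2% of the 27305 genes with a window. The E2F letters stood in 16 of 26 replication genes (61.5%), 1 of 24 mitosis genes (4.17%) and 3.3% of all genes. In PLK1 the match lies 29 bases before the start, and CDC20 has matches 178 and 65 bases before it. The MCM2 matches overlap each other and, like the match in CDC6, lie after the start. These are matches of letters, not measured binding, and a part of these regulators in the falls was not tested.

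PLK1, the kinase that drives entry into mitosis and spindle assembly (chr16:23678889-23690367), was at 75.3, 95.7 and 93.1 CPM in fPS 100, against 209, 211 and 213 CPM in fPS 25. Every fPS 100 library was far below every fPS 25 library, a log2 difference of −1.26 ± 0.10 (SE, n = 3 each, adjusted p = 2.55e-05, edgeR). FOXM1, the transcription factor that raises mitotic genes, was at 90.4, 93.0 and 77.0 CPM in fPS 100, against 213, 227 and 203 CPM in fPS 25 (−1.31 ± 0.09, adjusted p = 1.65e-05, edgeR). The groups lay clear of each other. CDC20, the activator of the ubiquitin ligase that starts anaphase, was at 130.4, 166 and 146 CPM in fPS 100, against 327, 310.4 and 336 CPM in fPS 25 (−1.14 ± 0.11). KIF20A, a kinesin of the central spindle, was at 46.1, 50.7 and 34.9 CPM in fPS 100, against 128, 124 and 114 CPM in fPS 25 (−1.47 ± 0.14). Replicate 3 of fPS 100 was the lowest library for KIF20A and FOXM1, and without it 30 of 30 mitosis genes fell with a median of −1.11. TPX2 and KIF23, of spindle assembly and cytokinesis, fell by 1.19 and 1.16, and ESPL1, the protease that cuts cohesin at anaphase, fell by 1.57 (± 0.09, adjusted p = 1.19e-05, edgeR).

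Replication genes moved with similar sizes. CDC6, which loads the replicative helicase at origins, was at 64.3, 76.3 and 58.3 CPM in fPS 100, against 149, 158 and 158 CPM in fPS 25 (−1.23 ± 0.10, adjusted p = 3.38e-05, edgeR). MCM2, a helicase subunit, was at 85.9, 92.7 and 72.0 CPM in fPS 100, against 198, 199 and 185 CPM in fPS 25 (−1.21 ± 0.11). The libraries of the groups did not overlap for either gene. MCM7, of the same helicase, was at 371, 421 and 339 CPM in fPS 100, against 871, 903 and 888 CPM in fPS 25. CDT1, the other loading factor, was at 27.8, 33.7 and 21.8 CPM in fPS 100, against 77.7, 81.3 and 80.9 CPM in fPS 25 (−1.53 ± 0.14). MCM10, which helps activate the helicase, had the largest fall of the replication list, at −1.59 ± 0.13. Among transcription factors known to act on such genes, MYBL2 (B-MYB) fell by 1.40 and E2F1 fell by 1.1.

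**Figure D3:**
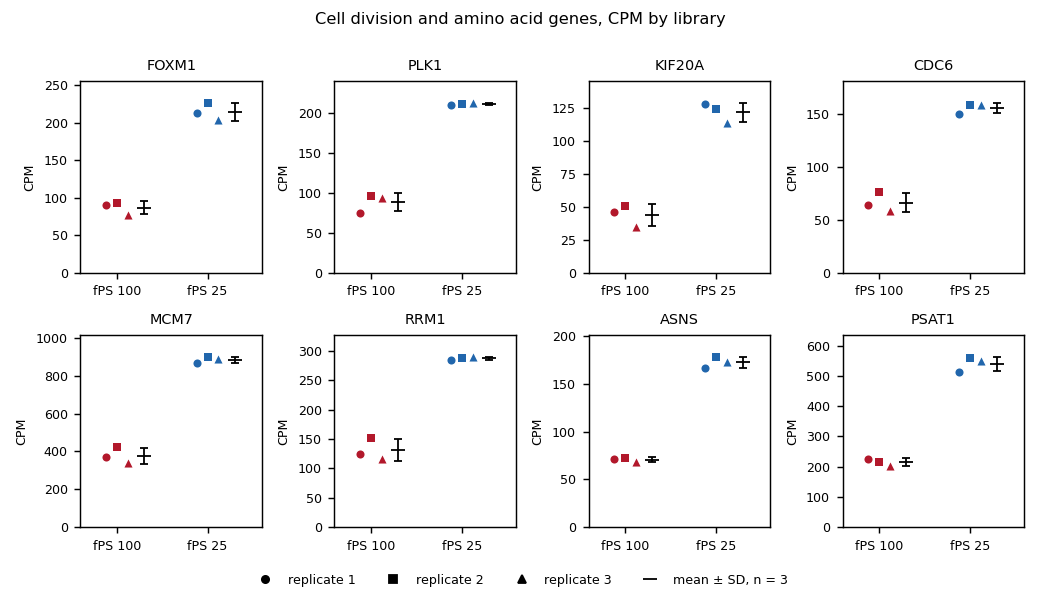
CPM in each library of fPS 100 (red, left) and fPS 25 (blue, right) for 8 genes of cell division and amino acid synthesis, with the mean and SD of 3 libraries as bars. In every panel the 3 fPS 100 libraries lie below the 3 fPS 25 libraries, as with PLK1 at 75.3 to 95.7 against 209 to 213 CPM.

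Genes that supply or guard replication also fell. Homologous recombination and Fanconi repair, which mend breaks and crosslinks met by the fork, had 18 of 18 genes lower, with a median of −1.25. EXO1, a nuclease that resects broken ends, was at 15.6, 16.1 and 9.96 CPM in fPS 100, against 44.8, 45.4 and 40.9 CPM in fPS 25 (−1.65 ± 0.16, adjusted p = 7.66e-05, edgeR). BRCA1 fell by 1.43 and FANCD2 fell by 1.39. Of 15 genes of cohesin and condensin, which hold and compact chromosomes, 13 fell, NCAPH among them at −1.29 ± 0.12. Of 25 genes of nucleotide synthesis 16 fell and none rose. RRM1, the large subunit of ribonucleotide reductase, was at 124, 152 and 116 CPM in fPS 100, against 285, 288 and 289.9 CPM in fPS 25 (−1.14 ± 0.10, adjusted p = 5.82e-05, edgeR), and TYMS, which makes thymidylate, fell by 1.28. For both EXO1 and RRM1 the highest fPS 100 library was below the lowest fPS 25 library.

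Among 20 G1 cyclins, CDKs and their inhibitors 9 fell and 4 rose. CDKN1A, which encodes the CDK inhibitor p21, was at 346, 343 and 441 CPM in fPS 100, against 159, 158 and 168 CPM in fPS 25 (1.22 ± 0.11, adjusted p = 5.01e-05, edgeR). Every fPS 100 library was above every fPS 25 library, and control averaged 140.2 ± 8.46 CPM (SD, n = 3). CCND1, the cyclin that opens G1, rose by 0.65 and CCNE1 by 0.70, while CDK2 fell by 0.74, E2F7 fell by 1.21 and E2F8 fell by 1.58, both repressors of the E2F family. CDKN2C (p18) fell by 1.04 and CDKN1B (p27) by 0.49, so the inhibitors did not move together. The rises in this list dropped to 2 without fPS 25 replicate 1 and 1 without fPS 25 replicate 3, where CCND1 had an adjusted p of 0.0536. CCNE1 lost its call without fPS 100 replicate 1 (0.0624) or any 1 fPS 25 library (0.0781 to 0.136), and CDKN1B without fPS 25 replicate 1 (0.0525) or 3 (0.0579).

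Chromatin and nuclear transport genes were lower to a smaller degree. Of 13 genes of DNA methylation and Polycomb 8 fell, with a median of −0.52. DNMT1, which copies methylation onto new DNA, was at 88.0, 90.4 and 88.6 CPM in fPS 100, against 149, 174 and 144 CPM in fPS 25 (−0.81). Its partner UHRF1 fell by 0.91, EZH2, the Polycomb methyltransferase, by 0.77 and HELLS, a remodeller, by 1.19. DNMT3B, a de novo methyltransferase, did not follow the order of the doses. It averaged 4.13 ± 0.8 CPM in control, and was at 12.4, 11.1 and 9.04 CPM in fPS 25 and 6.21, 7.3 and 3.87 CPM in fPS 100 (SD, n = 3). Its difference was 1.39 for fPS 25 over control (adjusted p = 0.00844) and −0.91 ± 0.23 for fPS 100 over fPS 25 (adjusted p = 0.0231, edgeR), both resting on the same fPS 25 libraries. Its fall had an adjusted p of 0.0919 without fPS 25 replicate 1 and 0.078 without fPS 25 replicate 2. Of 24 nuclear pore and transport genes 17 fell, with a median of −0.42, led by KPNA2, an importin, at −0.74 ± 0.09. Leaving out fPS 100 replicate 1 or 2 brought that count to 9 or 10, leaving out fPS 25 replicate 1, 2 or 3 to 8, 8 or 9, and leaving out control replicate 1 to 11.

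ATF4, the transcription factor of amino acid shortage, is known to drive the enzymes that make serine, proline, cysteine and asparagine. Of 26 such genes 14 fell and 1, ATF3, rose, with a median of −0.47. ASNS, asparagine synthetase (chr7:97851677-97928441), was at 71.7, 72.2 and 67.7 CPM in fPS 100, against 166, 178 and 174 CPM in fPS 25 (−1.29 ± 0.08, adjusted p = 1.19e-05, edgeR). PSAT1, of serine synthesis, was at 226, 217 and 201 CPM in fPS 100, against 515, 560.3 and 549 CPM in fPS 25 (−1.34 ± 0.09, adjusted p = 1.47e-05, edgeR). For ASNS and PSAT1 the libraries within each group lay close together and the groups far apart. PYCR1, of proline synthesis, was at 19.7, 19.8 and 24.3 CPM in fPS 100, against 50.5, 55.4 and 63.2 CPM in fPS 25 (−1.41). CTH, which makes cysteine, fell by 1.39, STC2, a secreted glycoprotein, fell by 1.43 and PHGDH, the first enzyme of serine synthesis, by 0.86.

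The stress arm of the list differed from gene to gene. CHAC1, which degrades glutathione, was at 12.8, 11.6 and 17.3 CPM in fPS 100, against 30.1, 36.8 and 34.6 CPM in fPS 25. DDIT3 (CHOP), a death-promoting factor downstream of ATF4, was at 56.5, 51.6 and 43.5 CPM in fPS 100, against 50.9, 52.9 and 54.4 CPM in fPS 25 (−0.06, adjusted p = 0.802, edgeR), with libraries that overlap. ATF3, also an immediate early gene, was at 47.0, 46.9 and 32.7 CPM in fPS 100, against 18.4, 17.1 and 18.4 CPM in fPS 25 (1.23 ± 0.14, adjusted p = 0.000187, edgeR). Of 20 cytosolic aminoacyl-tRNA synthetases, which charge tRNAs and include known ATF4 targets, 9 fell and none rose, IARS by 0.79, AARS by 0.72 and EPRS by 0.61. The cytosolic ribosomal proteins had 0 of 32 called by edgeR, DESeq2 or limma-voom, with 0 at an unadjusted p under 0.05 and a median of −0.01.

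Metallothioneins are small proteins that bind zinc and copper, and with the zinc exporter SLC30A1 they are targets of MTF1. Of 9 genes tested 4 rose, 1 fell and 4 were not called, in the fit and without any 1 library. Of all genes tested, 5.98% rose and 7.33% fell. The promoters of MT2A (chr16:56608334-56608633, plus strand) and SLC30A1 (chr1:211579112-211579411, minus strand), from RefSeq on GRCh38.p14, are shown because the metal response element they hold is the site MTF1 is known to bind. Capitals mark its core, searched as TGCACNC or TGCGCNC on either strand.
MT2A: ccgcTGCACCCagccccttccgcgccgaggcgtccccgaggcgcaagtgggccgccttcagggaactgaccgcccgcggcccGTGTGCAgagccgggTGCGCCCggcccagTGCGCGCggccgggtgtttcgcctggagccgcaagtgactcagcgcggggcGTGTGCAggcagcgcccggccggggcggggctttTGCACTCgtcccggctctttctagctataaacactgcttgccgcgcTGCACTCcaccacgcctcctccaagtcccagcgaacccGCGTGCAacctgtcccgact
SLC30A1: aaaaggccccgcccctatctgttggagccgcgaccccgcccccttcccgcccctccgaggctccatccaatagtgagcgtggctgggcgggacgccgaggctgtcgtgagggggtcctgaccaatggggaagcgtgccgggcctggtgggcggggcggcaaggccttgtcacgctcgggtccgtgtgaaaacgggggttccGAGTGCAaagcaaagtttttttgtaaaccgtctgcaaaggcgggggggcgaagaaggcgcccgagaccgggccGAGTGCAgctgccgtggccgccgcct

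MT2A has 8 such matches and SLC30A1 has 2. The letters are common: they stood in 33.4% of all genes with a window. In the metallothionein and zinc list they stood in 6 of the 9 genes with a window. Those 9 were taken from all entries of the list, not from the genes tested. MT2A (chr16:56608584-56609497) was at 716, 761 and 1416 CPM in fPS 100, against 155, 164 and 186 CPM in fPS 25, 5.72-fold higher (2.52 ± 0.24, adjusted p = 7.83e-05, edgeR). MT1E was at 267, 287 and 159.9 CPM in fPS 100, against 40.0, 40.7 and 46.7 CPM in fPS 25, 5.6-fold higher (2.49 ± 0.20, adjusted p = 2.72e-05, edgeR). Replicate 3 of fPS 100 was the highest library for MT2A and the lowest of its group for MT1E, and the groups did not overlap for either. MT1X was at 47.5, 54.9 and 38.8 CPM in fPS 100, against 16.7, 13 and 17.2 CPM in fPS 25 (1.59 ± 0.17). SLC30A1, which carries zinc out of the cell, was at 24.2, 24.4 and 21.8 CPM in fPS 100, against 7.91, 7.03 and 6.57 CPM in fPS 25 (1.71 ± 0.12, adjusted p = 1.47e-05, edgeR). SLC39A10, which carries zinc in, went the other way, at 27.8, 28.2 and 45.7 CPM in fPS 100, against 90.0, 81.4 and 81.3 CPM in fPS 25 (−1.31 ± 0.19, adjusted p = 0.000835, edgeR). MT1F was at 0.25 (adjusted p = 0.513, edgeR). Metallothionein copies resemble each other closely, so reads may be split between them in ways the counting decides.

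NRF2 targets rose in 11 of 26 cases and fell in none, where 5.98% of all genes rose and 7.33% fell. Their median was 0.48. TXNRD1, which reduces thioredoxin, averaged 226 ± 33.0 CPM in control and was at 329, 379 and 347 CPM in fPS 25 and 742, 663 and 852 CPM in fPS 100. The step from fPS 25 to fPS 100 was 1.10 ± 0.13 (adjusted p = 0.000239, edgeR), and no fPS 100 library was as low as any fPS 25 library. NQO1, a quinone reductase, was at 995, 1018 and 998 CPM in fPS 100, against 605, 633 and 706 CPM in fPS 25 (0.63 ± 0.11, adjusted p = 0.00236, edgeR). FTL, the light chain of ferritin, was at 2309, 2306 and 2336 CPM in fPS 100, against 1325, 1441 and 1631 CPM in fPS 25 (0.66). ABCC3, an export pump, rose by 1.16 and AKR1C3, an aldo-keto reductase, by 0.97. HMOX1, which breaks down haem, was at 29.8, 23.3 and 104 CPM in fPS 100, against 14.1, 13.7 and 13.9 CPM in fPS 25. It missed the threshold (1.91 ± 0.54, adjusted p = 0.0534, edgeR) and passed it without replicate 3 of fPS 100 (0.93, adjusted p = 0.00201). The rises in the NRF2 list numbered 7 without fPS 25 replicate 1.

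Of 12 AhR targets 6 rose and none fell, where 5.98% of all genes rose and 7.33% fell. Their median was 0.41. CYP1B1, a P450 that oxidises polycyclic compounds and oestrogens, averaged 85.5 ± 24.9 CPM in control and was at 310.4, 389 and 336 CPM in fPS 25 and 1032, 772 and 556 CPM in fPS 100. Its difference was 2.01 ± 0.23 for fPS 25 over control (adjusted p = 0.00149) and 1.19 ± 0.23 for fPS 100 over fPS 25 (adjusted p = 0.00548, edgeR), which share the fPS 25 libraries. Every library of a higher dose was above every library of a lower one. ALDH1A3, which makes retinoic acid, was at 196, 169 and 146 CPM in fPS 100, against 87.0, 101 and 88.9 CPM in fPS 25 (0.88 ± 0.11, adjusted p = 0.000377, edgeR). CYP1A1, the best known target, was at 22.8, 16 and 4.26 CPM in fPS 100, against 4.17, 5.29 and 4.98 CPM in fPS 25, with replicate 3 inside the fPS 25 range. Its call was marginal (1.57 ± 0.46, adjusted p = 0.05 after rounding, edgeR) and was lost without any 1 library (0.0767 to 0.156) other than that replicate. Without fPS 100 replicate 3 its difference was 2.0 (adjusted p = 4.58e-05, edgeR). This list had 3 rises when fPS 100 replicate 1 was left out, and 2, 3 or 3 when fPS 25 replicate 1, 2 or 3 was.

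Immediate early genes answer a stimulus within minutes and many encode AP-1 or EGR factors. Of 23 tested 16 rose and none fell, with a median of 0.78, and 12 to 17 rose when any 1 library was left out. JUN was at 90.8, 96.6 and 146 CPM in fPS 100, against 35.6, 43.9 and 40.2 CPM in fPS 25 (1.48 ± 0.16, adjusted p = 0.000175, edgeR). EGR1 was at 208, 221 and 262 CPM in fPS 100, against 86.9, 111 and 108 CPM in fPS 25 (1.17 ± 0.12, adjusted p = 0.000116, edgeR). FOS was at 18.8, 26.4 and 16.2 CPM in fPS 100, against 5.86, 7.16 and 7.72 CPM in fPS 25 (1.56 ± 0.19, adjusted p = 0.000275, edgeR). No fPS 100 library overlapped fPS 25 for these 3 genes, and replicate 3 was the highest for JUN and EGR1 and the lowest of its group for FOS. IER3, an early stress gene, rose by 1.29 and JUNB by 1.00.

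MAP kinase feedback genes are raised by ERK signalling and damp it. Of 16 tested 6 rose, DUSP4 by 1.27, DUSP5 by 1.28 and DUSP6 by 1.05, all phosphatases of MAP kinases. DUSP10, a phosphatase of p38 and JNK, was the 1 that fell, at 45.4, 49.2 and 44.1 CPM in fPS 100, against 105, 83.6 and 89.9 CPM in fPS 25 (−1.01 ± 0.10). Of 12 EGF receptor ligands and receptors 4 rose. AREG (amphiregulin) was at 36.0, 32.4 and 97.3 CPM in fPS 100, against 15.2, 18.7 and 17.7 CPM in fPS 25 (1.68 ± 0.39, adjusted p = 0.021, edgeR), and HBEGF was at 12.8, 14.7 and 52.4 CPM in fPS 100, against 8.4, 7.08 and 7.27 CPM in fPS 25 (1.82, adjusted p = 0.0474, edgeR). Replicate 3 was by far the highest for both ligands. AREG lost its call without any 1 fPS 25 library (adjusted p 0.0799 to 0.0966), and HBEGF and DUSP6 without any 1 fPS 25 or control library (0.0504 to 0.173). The 4 EGF family calls dropped to 0 without any 1 fPS 25 library and to 1 without control replicate 1, as well as to 0 with only fPS 100 and fPS 25 in the fit, and the 6 feedback calls to 2 and 3 without fPS 25 replicates 1 and 2.

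**Figure D4:**
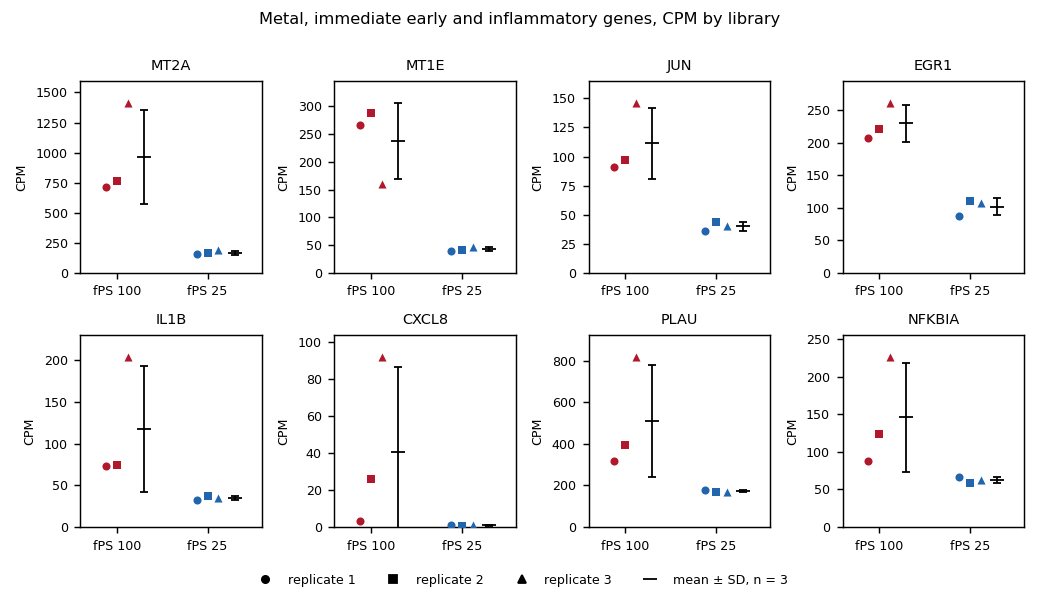
CPM in each library of fPS 100 (red, left) and fPS 25 (blue, right) for 8 genes of metal binding, immediate early response and inflammation, with the mean and SD of 3 libraries as bars; the CXCL8 bar is cut off at 0. The fPS 25 libraries lie close together in each panel, and fPS 100 replicate 3 (triangle) is the highest library in every panel but MT1E.

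Lists of inflammatory genes moved in part, with chemokines, interleukins and NF-kB targets among the rises, and 11 of 13 Toll-like receptor genes not called. Summed immune cell markers were at 19 to 20.3 CPM in fPS 100, against 12 to 14.4 CPM in fPS 25, nearly all of it CD68, a lysosomal protein that other cells make too, at 19.4, 18.3 and 19.9 CPM in fPS 100, against 13.7, 13.6 and 11.9 CPM in fPS 25. The sums and the CD68 levels were scaled by slightly different library sizes. The part of these markers in the results that follow was not tested. Of 7 chemokines 5 rose and 1, CXCL14, fell. CXCL8 (chr4:73740569-73743716), which draws neutrophils, was at 3.31, 25.9 and 91.9 CPM in fPS 100, against 0.846, 0.725 and 0.794 CPM in fPS 25, 51.3-fold higher (5.68 ± 1.27, adjusted p = 0.0287, edgeR). CXCL1, of the same receptor, was at 2.11, 13.7 and 30.5 CPM in fPS 100, against 1.03, 0.853 and 0.926 CPM in fPS 25 (4.05 ± 0.90, adjusted p = 0.0227, edgeR). All fPS 100 libraries were above fPS 25 for both genes, but they spread over more than a factor of 10 among themselves. CXCL16, a membrane-bound chemokine, was at 53.8, 58.6 and 109 CPM in fPS 100, against 38, 32.4 and 34.8 CPM in fPS 25 (1.07 ± 0.22, adjusted p = 0.00756, edgeR), and was called without any 1 library. CXCL14, a constitutive skin chemokine, was at 0.828, 0.725 and 0.625 CPM in fPS 100, against 1.75, 1.45 and 1.9 CPM in fPS 25. CXCL8 lost its call without any 1 fPS 25 library (adjusted p 0.117 to 0.131) or any 1 control library (0.057 to 0.0593), CXCL1 without any 1 fPS 25 library (0.0885 to 0.11) or control replicate 2 (0.0507), and the 5 rises numbered 1 without any 1 fPS 25 library and 3 without control replicate 1 or 2. They also numbered 1 by limma-voom, 2 with only the compared groups in the fit and 3 with no filter on low counts.

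The interleukin-1 family, stored and released by keratinocytes as an alarm, had 5 of 8 genes higher, with a median of 0.90. IL1B was at 72.6, 74.4 and 204 CPM in fPS 100, against 32.3, 36.5 and 35.1 CPM in fPS 25 (1.76 ± 0.37, adjusted p = 0.0151, edgeR). IL1A was at 60.8, 68.1 and 154 CPM in fPS 100, against 35.7, 44.9 and 41.1 CPM in fPS 25 (1.21, adjusted p = 0.0243, edgeR). Both were clear of fPS 25 in every library, with replicate 3 far above the others. Receptor antagonists of the family varied little within groups: IL1RN, which blocks the interleukin-1 receptor, was at 43.0, 43.3 and 46.5 CPM in fPS 100, against 27.1, 25.9 and 26.8 CPM in fPS 25 (0.74 ± 0.10, adjusted p = 0.000834, edgeR), and IL36RN, which blocks the IL-36 receptor, at 6.54, 6.74 and 6.95 CPM in fPS 100, against 3.32, 3.24 and 3.13 CPM in fPS 25 (1.06 ± 0.18, adjusted p = 0.00269, edgeR). IL1RN and IL36RN were called without any 1 library. IL1B lost its call without any 1 fPS 25 library (adjusted p 0.0636 to 0.0705), IL1A without any 1 fPS 25 library (0.0768 to 0.0966), control replicate 2 (0.0576) or control replicate 3 (0.0628), and the list's rises were 2 without any 1 fPS 25 library and 3 without control replicate 3, and 2 with only the compared groups in the fit and 3 with no filter on low counts.

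Of 14 other cytokines and colony-stimulating factors 6 rose, where 5.98% of all genes rose. IL6 averaged 6.49 ± 0.545 CPM in control and was at 2.72, 2.94 and 3.04 CPM in fPS 25 and 5.42, 6.57 and 13.5 CPM in fPS 100. Its difference was −1.16 for fPS 25 over control (adjusted p = 0.0485) and 1.55 ± 0.30 for fPS 100 over fPS 25 (adjusted p = 0.00558, edgeR), with the fPS 25 libraries shared. The fPS 25 libraries were the lowest of the 3 groups. IL11, a cytokine of the same family, rose by 1.24, and TNFSF15, a TNF-like ligand, was at 36.0, 28.8 and 30.4 CPM in fPS 100, against 15.7, 17.1 and 15.2 CPM in fPS 25 (0.99 ± 0.12, adjusted p = 0.00031, edgeR). The 6 rises were 3 without fPS 25 replicate 3. Of 10 inflammasome and gasdermin genes 5 rose, CASP1 by 0.61 and its adaptor PYCARD by 0.52, and 3 and 2 without fPS 25 replicates 1 and 2. CASP1 lost its call without fPS 100 replicate 2 (0.0551) or fPS 25 replicate 2 (0.0918), and PYCARD without fPS 25 replicate 1 (0.0811) or 2 (0.0826).

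Of 19 NF-kB targets and subunits 8 rose and none fell, with a median of 0.99, and replicate 3 was the highest fPS 100 library for 18 of them. NFKBIA, the inhibitor that NF-kB itself induces, was at 87.2, 123 and 227 CPM in fPS 100, against 66.0, 58.2 and 63.0 CPM in fPS 25 (1.23 ± 0.28, adjusted p = 0.0152, edgeR). RELB, a subunit, was at 23.2, 25.2 and 78.6 CPM in fPS 100, against 12.6, 13.4 and 14.3 CPM in fPS 25 (1.65, adjusted p = 0.0382, edgeR). For both, every fPS 100 library was above every fPS 25 library, replicate 1 by the least. BIRC3, an inhibitor of apoptosis, averaged 41.1 ± 4.68 CPM in control and was at 11.4, 9.25 and 9.48 CPM in fPS 25 and 14.7, 17.8 and 48.9 CPM in fPS 100. It fell by 2.04 in fPS 25 against control (adjusted p = 0.0207) and rose by 1.44 in fPS 100 against fPS 25 (adjusted p = 0.0405, edgeR), and only replicate 3 of fPS 100 was above the control mean. Without replicate 3 of fPS 100, 11 of the 19 rose with a median of 0.40. The 8 rises were 2 without any 1 fPS 25 library and 5 without any 1 control library, and 3 with only the compared groups in the fit and 5 by limma-voom or with no filter on low counts. NFKBIA lost its call without any 1 fPS 25 library (adjusted p 0.0555 to 0.0798), and RELB and BIRC3 without any 1 fPS 25 or control library (0.0616 to 0.159).

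Several secreted and antimicrobial genes were highest in replicate 3 by a wide margin and were not called. PI3 (elafin), a protease inhibitor, was at 0.828, 2.05 and 203 CPM in fPS 100, against 0.604, 0.426 and 0.794 CPM in fPS 25 (adjusted p = 0.119, edgeR). SAA1, an acute phase protein, was at 2.11, 4.01 and 161 CPM in fPS 100, against 2.72, 2.22 and 3.31 CPM in fPS 25 (adjusted p = 0.157). SOD2, the mitochondrial superoxide dismutase and an NF-kB target, was at 143, 189 and 1949.7 CPM in fPS 100, against 125, 122 and 131 CPM in fPS 25 (2.59 ± 1.00, adjusted p = 0.148, edgeR). Without replicate 3, SOD2 was at 0.40 (adjusted p = 0.0254). CCL2, which draws monocytes, was at 3.6, 21.5 and 93.6 CPM in fPS 100, against 5.07, 5.41 and 6.22 CPM in fPS 25 (adjusted p = 0.127). LCN2, which binds bacterial iron carriers, was at 3.85, 3.41 and 100.2 CPM in fPS 100, against 3.44, 4.86 and 3.57 CPM in fPS 25 (adjusted p = 0.188). For LCN2 replicate 2 lay just below the fPS 25 range and replicate 1 inside it, while for PI3, SAA1, CCL2 and SOD2 replicate 2 was above the fPS 25 range. Replicate 1 was above that range for SOD2, just above it for PI3, and below it for SAA1 and CCL2.

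Interferon response genes encode antiviral proteins and are switched on through a complex of STAT2 and IRF9. The promoters of IFIT3 (chr10:89327747-89328046, plus strand) and ISG15 (chr1:1013247-1013546, plus strand), from RefSeq on GRCh38.p14, are shown for the element these factors are known to read. Capitals mark the interferon-stimulated response element, searched as TTTC and TTTC with any 2 bases between them, on either strand.
IFIT3: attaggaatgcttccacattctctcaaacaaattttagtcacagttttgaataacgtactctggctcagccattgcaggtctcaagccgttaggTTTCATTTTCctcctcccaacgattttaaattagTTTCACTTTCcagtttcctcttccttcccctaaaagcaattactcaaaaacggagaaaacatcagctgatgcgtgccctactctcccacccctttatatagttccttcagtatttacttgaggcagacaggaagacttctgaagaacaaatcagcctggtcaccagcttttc
ISG15: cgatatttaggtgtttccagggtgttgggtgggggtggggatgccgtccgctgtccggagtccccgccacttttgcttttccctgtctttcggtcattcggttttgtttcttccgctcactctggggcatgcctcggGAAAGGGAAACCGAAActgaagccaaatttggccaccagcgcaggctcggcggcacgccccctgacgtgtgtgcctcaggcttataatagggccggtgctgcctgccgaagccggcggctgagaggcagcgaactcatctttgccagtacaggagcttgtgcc

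The letters stood in 17 of 24 interferon genes with a window (70.8%) and in 4.38% of all genes. Both promoters have 2 matches, at 156 and 122 bases before the start in IFIT3 and, overlapping, at 113 and 107 in ISG15. Of 33 interferon response genes tested 16 rose and none fell in fPS 100 against fPS 25, with a median of 0.37. Over all genes, 5.98% rose and 7.33% fell in that contrast. In fPS 25 against control 3.13% of all genes rose and 2.21% fell. None of the 33 rose there and 9 fell, with a median of −0.32. Among the 33, 7 rose and 3 fell in fPS 100 against control, with a median of 0.01. Over all genes 15.1% rose and 14.8% fell there. These comparisons share libraries, so their directions are not independent.

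IFIT2, which binds viral RNA, averaged 298 ± 25.9 CPM in control, 209.7 ± 22.6 CPM in fPS 25 and 358 ± 23.5 CPM in fPS 100 (SD, n = 3 each). It was at 332, 377 and 366 CPM in fPS 100, against 235, 192 and 202 CPM in fPS 25 (0.77 ± 0.11, adjusted p = 0.00063, edgeR), and at −0.51 in fPS 25 against control (adjusted p = 0.0191). The fPS 25 libraries were thus below both other groups. RSAD2 (viperin) was at 161, 165 and 162 CPM in fPS 100, against 106, 81.3 and 91.0 CPM in fPS 25 (0.81 ± 0.11, adjusted p = 0.000803, edgeR), with a control mean of 138 ± 17.4 CPM. DDX58 (RIG-I), a sensor of viral RNA, was at 102, 115 and 107 CPM in fPS 100, against 71.0, 66.2 and 69.5 CPM in fPS 25 (0.65 ± 0.09, adjusted p = 0.000944, edgeR), with a control mean of 94.1 ± 9.37 CPM. XAF1, an interferon-induced promoter of apoptosis, followed another course, at 36.9, 34.9 and 38.2 CPM in fPS 100, against 24.3, 22.5 and 20.6 CPM in fPS 25 (0.71, adjusted p = 0.0018, edgeR), with fPS 25 at 0.06 against control (adjusted p = 0.813).

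Without replicate 3 of fPS 100, 19 of the 33 interferon genes rose with a median of 0.39. ISG15, a ubiquitin-like protein, was at 326, 419 and 438 CPM in fPS 100, against 228, 200.3 and 262 CPM in fPS 25 (0.78 ± 0.17, adjusted p = 0.012, edgeR), with a control mean of 346 ± 83.0 CPM. It lost its call without fPS 25 replicate 1 (0.0581) or replicate 2 (0.0736). IFIT3, a partner of IFIT2, was at 396, 449.8 and 424 CPM in fPS 100, against 349, 303 and 328 CPM in fPS 25 (0.37, adjusted p = 0.0231, edgeR), and lost its call without fPS 100 replicate 2 (0.0789) or any 1 fPS 25 library (0.0534 to 0.127). The 16 rises were 6 without fPS 25 replicate 2 and 10 without fPS 25 replicate 3. MHC class I genes, which display peptides on the cell surface and are raised by interferon, rose in 6 of 11 cases with a median of 0.59. B2M, the light chain of every class I molecule, was at 312, 344 and 332 CPM in fPS 100, against 211, 198 and 248 CPM in fPS 25 (0.59 ± 0.10, adjusted p = 0.00285, edgeR). B2M was called without any 1 library, but the 6 rises were 1, 2 and 3 without fPS 25 replicates 1, 2 and 3. Class I heavy chain genes are similar in sequence, so reads may be split between them.

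**Figure D5:**
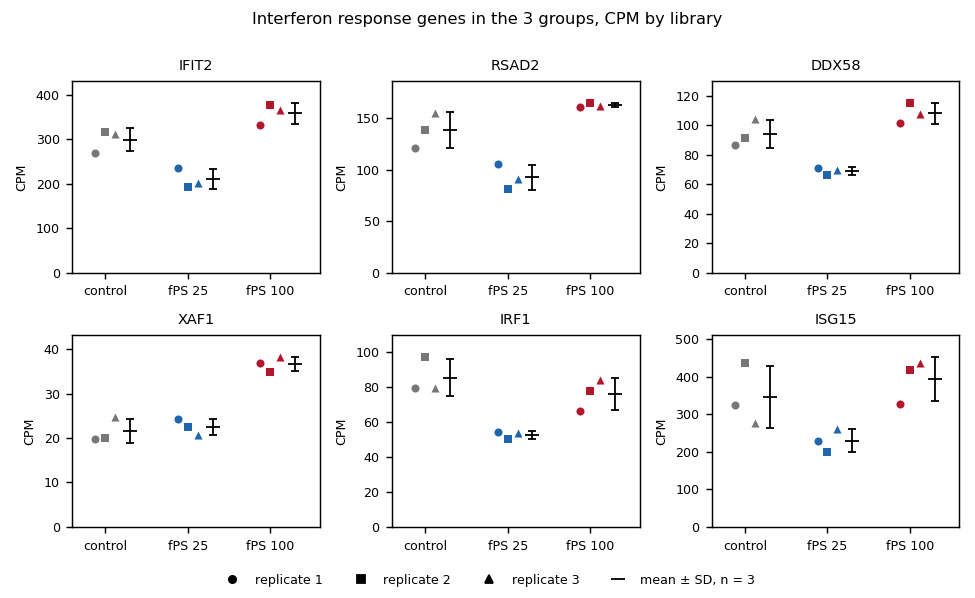
CPM in each library of control, fPS 25 and fPS 100 (left to right) for 6 interferon response genes, with the mean and SD of 3 libraries as bars. For IFIT2, RSAD2, DDX58 and IRF1 the fPS 25 libraries lie below both other groups, and for XAF1 control and fPS 25 lie together at 19.9 to 24.7 CPM, below fPS 100 at 34.9 to 38.2 CPM.

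Genes of adhesion and matrix rose in part. Of 20 integrins and laminins 5 rose and none fell. ITGA3, the chain that binds laminin-332 of the skin basement membrane, was at 736, 660.2 and 987 CPM in fPS 100, against 428, 452 and 413 CPM in fPS 25 (0.88 ± 0.13, adjusted p = 0.00122, edgeR). ITGAV rose by 0.82 and ITGB6 by 0.77, which pair as the receptor that activates TGF-beta. COL7A1, the collagen of anchoring fibrils, averaged 338 ± 18.9 CPM in control and was at 229, 266 and 249 CPM in fPS 25 and 475, 416 and 563 CPM in fPS 100 (0.97 ± 0.12 for fPS 100 over fPS 25, adjusted p = 0.000275, edgeR). The libraries of the groups did not overlap for ITGA3 or COL7A1. Over all genes tested 5.98% rose and 7.33% fell. Of 22 collagen and matrix genes 2 rose and 1 fell, and of 18 matrix proteases and inhibitors 4 rose and 1 fell. Of 15 keratins 1 rose and 2 fell, and of 26 junction genes 2 rose and 2 fell. The collagen, keratin and junction rises lie near the share over all genes. PLAU, urokinase, was at 319, 396 and 819.7 CPM in fPS 100, against 177, 169 and 169 CPM in fPS 25 (1.58 ± 0.28, adjusted p = 0.00392, edgeR). KRT17, a keratin of wounded and inflamed epidermis, was at 278, 290.4 and 628 CPM in fPS 100, against 143, 126 and 150.3 CPM in fPS 25 (1.51 ± 0.26, adjusted p = 0.00349, edgeR). Replicate 3 was the highest library for PLAU and KRT17. KRT17 was the 1 keratin that rose, and it was not called with no filter on low counts. The basal keratin KRT5 was at 1424, 1454 and 1259.7 CPM in fPS 100, against 1763, 1597 and 1627 CPM in fPS 25 (−0.27, adjusted p = 0.11, edgeR), and KRT13, of mucosal epithelium, fell by 0.82 but was not called without fPS 25 replicate 1 (0.0765) or 3 (0.0806). The integrin and laminin rises were 3 without any 1 fPS 25 library.

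Of 21 transcription factors of keratinocyte differentiation 6 rose and none fell, where 5.98% of all genes rose and 7.33% fell. ELF3, an epithelial factor, rose by 0.68. The rises were 3 without fPS 100 replicate 2 and 2 without fPS 25 replicate 2 or 3. Of 25 genes of the BCL2 family and caspases 7 rose and 1, CASP2, fell, a call lost without fPS 25 replicate 1 (0.0953) or 2 (0.105). Genes that restrain death and genes that promote it were both among the rises. MCL1, a survival factor, was at 481, 492 and 559 CPM in fPS 100, against 333, 331 and 328 CPM in fPS 25 (0.63), and BBC3 (PUMA), which promotes death, rose by 0.64. BCL2L1, of survival, rose by 0.57 and CFLAR, which blocks caspase-8, by 0.61. Those 7 rises were 4 without any 1 fPS 25 library or control replicate 1, and 4 with only the compared groups in the fit.

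By size alone, the naming rule brought up further genes, some of them of low level. FUCA1, a lysosomal fucosidase, was at 4.14, 3.63 and 3.36 CPM in fPS 100, against 0.846, 0.639 and 0.882 CPM in fPS 25 (2.23 ± 0.25, adjusted p = 0.000181, edgeR). NECAB2, a calcium-binding protein, was at 1.94, 1.88 and 1.88 CPM in fPS 100, against 0.302, 0.426 and 0.397 CPM in fPS 25 (2.30). Both were tight within groups. IGFL2-AS1, an antisense RNA, was at 168, 167 and 149 CPM in fPS 100, against 53.9, 49.9 and 57.6 CPM in fPS 25 (1.58 ± 0.09, adjusted p = 1.19e-05, edgeR). Whether the counting used strand is not given, so its reads and those of its partner cannot be told apart. Among the falls, DDN, known from kidney and brain, was at 1.49, 1.58 and 1.91 CPM in fPS 100, against 9.67, 8.78 and 8.6 CPM in fPS 25 (−2.43 ± 0.16, adjusted p = 1.47e-05, edgeR). ECM2, a matrix protein, was at 2.36, 1.41 and 0.82 CPM in fPS 100, against 8.28, 9.55 and 9.83 CPM in fPS 25 (−2.60 ± 0.28, adjusted p = 0.000159, edgeR). The groups did not overlap for DDN or ECM2. RPPH1, the RNA of ribonuclease P, which carries no poly(A) tail, was at 21.6, 20.9 and 20.4 CPM in fPS 100, against 264, 150 and 53 CPM in fPS 25 (−2.89, adjusted p = 0.0385, edgeR). It lost its call without any 1 fPS 100 library (adjusted p 0.0865 to 0.112), fPS 25 replicate 1 (0.0953) or 2 (0.107) or control replicate 2 (0.0684). The small RNAs left out of the comparison, which also lack the tail, took 0.00533% to 0.00847% of counts in fPS 100, against 0.0171% to 0.0759% in fPS 25.

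Several large gene groups gave no call. By edgeR 0 of 32 nuclear genes of oxidative phosphorylation passed, with 5 at an unadjusted p under 0.05, 1 by DESeq2 and 0 by limma-voom, and a median of −0.01. Of 13 protein-coding transcripts of the mitochondrial genome 0 passed by any of the 3 tools, with 0 at an unadjusted p under 0.05. Replicate 3 was the lowest fPS 100 library for all 13, and without it 1 rose and their median was 0.30, against 0.06 with it. TRNV, a transfer RNA of the same genome outside that list, did fall. Its call was lost without any 1 fPS 100 library (adjusted p 0.0516 to 0.0916, edgeR) or fPS 25 replicate 1 (0.131) or 2 (0.0771). Of 21 cholesterol synthesis genes 0 passed by edgeR, 2 by DESeq2 and 0 by limma-voom, with 5 at an unadjusted p under 0.05, and of 26 ribosome biogenesis genes 0 passed by any of the 3, with 3 at an unadjusted p under 0.05. Replicate 3 was the highest fPS 100 library for all 26 ribosome biogenesis genes and for 13 of the 21 cholesterol genes. Without it, 11 ribosome biogenesis genes and 7 cholesterol genes fell, with medians of −0.31 and −0.20.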

How the data were processed

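Poly(A)-selected RNA of 9 HaCaT libraries was sequenced. Per the labels' protocols, libraries were made with the NEBNext Ultra II RNA kit, and the submitters' processing notes name bcl2fastq and the build GRCh38.p14. The aligner, counting program, annotation release and strand setting were not named in the sources used here. The authors deposited raw read counts as whole numbers for each gene and library, and these counts were used for every result. The deposited log2 values per sample were not used here.

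Of 58173 rows, those of the same symbol were summed to 52402 symbols. Nuclear ribosomal RNAs and symbols beginning SNOR, SCARNA, RNU, RNY or HIST, 2412 in all, were left out, which left 31576 with a count. Genes were kept with filterByExpr (minimum count 10, minimum total 15) in edgeR 4.0.16 (R 4.3.3). All 9 libraries were scaled by TMM and fitted by group with edgeR's robust quasi-likelihood model, with 6 residual degrees of freedom and a biological coefficient of variation of 13.4%. The contrast was fPS 100 minus fPS 25, 2-sided, with Benjamini-Hochberg adjustment over all 14551 genes. SE is the absolute log2 difference over the square root of F. CPM of single genes use TMM-scaled library sizes over the genes tested. Summed CPM of lists and markers, and the floors, use all kept counts without TMM. Library totals ran from 25.0M to 29.3M counts in fPS 100, 16.4M to 23.4M in fPS 25 and 22.0M to 25.4M in control. On simulated data over 14179 genes, 87% of 200 genes changed 2-fold were called, and 4.4% of calls were false. The simulation drew every library from the fPS 25 means with independent noise, and no library was made to stand apart. These rates therefore need not hold for the calls reported here.

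Genes were named by a rule: among called genes whose groups did not overlap, the 15 largest changes each way with 1 CPM or more on average in the higher group, the 10 largest each way with 50 CPM or more, up to 4 members of each of 68 gene lists with the smallest adjusted p, and every called member where 5 or fewer moved that way. The rule passed over 3 rises and 4 falls that are only clone or locus names. CDC20, MCM2, MCM7, BRCA1, E2F8, CDKN2C, CDKN1B, DNMT3B, STC2, PHGDH, CHAC1, DDIT3, MT1F, HMOX1, CYP1A1, IER3, JUNB, DUSP6, RELB, BIRC3, PI3, SAA1, SOD2, CCL2, LCN2, ISG15, IFIT3, IRF1, KRT5, LAMP1 and the unnamed locus were chosen after their values were seen. Some genes are not reported here. The comparison, its gene lists and the naming rule were chosen with earlier results of these data known. Alternatives were scaling by RLE or upper quartile, no filter or 1 CPM in 3 libraries, DESeq2 1.42.0, limma-voom (limma 3.58.1), only the compared groups in the fit, a replicate block, small RNAs kept, other RNAs without poly(A) left out, the mitochondrial genome left out, and each library left out in turn. Promoters and their motif matches come from RefSeq windows of 250 bases before to 50 after 35116 starts.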

Additional observations from a re-analysis of the deposited data

Results flagged for a closer look

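Nuclear ribosomal RNA, outside the polyadenylated genes compared, gave a signal in 1 group of libraries. RNA28S5, RNA18S5, RNA45S5 and RNA5-8S5 together took 6.06% of counts in fPS 100 replicate 1, 8.27% in replicate 2 and 8.48% in replicate 3, and 0 counts in every fPS 25 and control library. LOC100507412, an unnamed locus among the tested genes, had the same distribution, at 2.77, 3.46 and 3.48 CPM in fPS 100 and 0 counts in the other 6 libraries. With the ribosomal, small RNA and HIST symbols kept in the fit, 924 genes rose and 1088 fell, against 870 and 1067 without them.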

How the results depend on the processing

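The count of calls moved by more than 1.5 times when a fPS 25 library was left out: 989 to 1087 genes were called, 357 to 420 of them higher and 632 to 669 lower in fPS 100, against 1937, 870 and 1067 with all libraries. Leaving out a fPS 100 library gave 736 to 1234 higher and 875 to 1437 lower (2671 in all without replicate 3, the most), and leaving out a control library gave 630 to 935 higher and 843 to 1121 lower. Other settings gave 742 to 1162 higher and 952 to 1232 lower, with the replicate block lower still. Same-numbered libraries were not fitted as pairs, and 0 of 9 pairs of deviations from group means correlated above 0.1. The labels do not say whether they share a culture or day. With 3 libraries per group these correlations cannot settle it. With the replicate block 1356 genes were called, 587 higher and 769 lower, and 32 of the 236 named genes lost their call. Of 4711 values under the alternatives, over the 236 genes that the naming rule took from those called, none changed sign, 4249 kept their side of the threshold, and 462 lost the call, 348 of these with a library left out. In all settings 139 named genes were called. With the block, the falls among nuclear pore genes numbered 11 of 24, and the rises 2 of 12 for EGF genes, 5 of 19 for NF-kB, 4 of 25 for BCL2 genes and 3 of 32 for lysosomal genes. Of 1520 list counts 1228 stayed within 1.5 times. Mitosis counts were 29 to 30 of 30 and replication counts 30 of 30 in every setting. The median of all genes ran from −0.002 to 0.018 (log2). At these depths, genes under 1 CPM rest on few counts.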

Other observations

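Prostaglandin genes moved in both directions, with 2 of 11 higher and 3 lower, where 5.98% of all genes tested rose and 7.33% fell. PTGES, which makes prostaglandin E2 from the product of the cyclooxygenases, was at 99.4, 97.8 and 141 CPM in fPS 100, against 46.2, 39.8 and 47.0 CPM in fPS 25 (1.35 ± 0.17, adjusted p = 0.00042, edgeR). PTGS1, the constitutive cyclooxygenase, was at 21.2, 17.9 and 21.1 CPM in fPS 100, against 29.7, 35.1 and 29.7 CPM in fPS 25 (−0.65, adjusted p = 0.00322), and the receptor PTGER2 fell by 0.81 but was not called without fPS 100 replicate 1 (0.0531) or fPS 25 replicate 2 (0.0877) or 3 (0.0734). Every fPS 100 library lay outside the fPS 25 range for PTGES and PTGS1. Of 32 lysosomal genes 5 rose, among them PSAP, the precursor of the saposins, at 1325, 1405 and 1513 CPM in fPS 100, against 935, 866 and 938 CPM in fPS 25 (0.63), and MAN2B1, a mannosidase, by 0.47. LAMP1, a major lysosomal membrane protein, was at 0.02 (adjusted p = 0.933, edgeR). The lysosomal rises numbered 9 without fPS 100 replicate 3, 3 without fPS 25 replicate 1 or 2, and 8 without control replicate 3 or by DESeq2.

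Of 23 autophagy genes 4 rose, where 5.98% of all genes tested rose and 7.33% fell. GABARAPL1, of the autophagosome membrane, averaged 138 ± 8.88 CPM in control and was at 95.9, 87.2 and 88.4 CPM in fPS 25 and 132, 138 and 177 CPM in fPS 100, a difference of 0.72 for fPS 100 over fPS 25 (adjusted p = 0.00174, edgeR). The fPS 25 libraries were the lowest of the 3 groups. OPTN, a receptor for cargo, rose by 0.60, and the autophagy rises numbered 2 without fPS 25 replicate 2. Of 15 fatty acid synthesis genes 4 fell and 1 rose, the rise being near the share over all genes. ACLY, which makes cytosolic acetyl-CoA, was at 807, 674 and 742 CPM in fPS 100, against 1124, 1169.6 and 967 CPM in fPS 25 (−0.55), and the elongases ELOVL5 and ELOVL6 fell by 0.61 and 0.55 while ELOVL7 rose by 0.40, a call lost without fPS 100 replicate 1 or 2, control replicate 1 or any 1 fPS 25 library (0.0588 to 0.154). Those falls numbered 2 without fPS 25 replicate 2, where ACLY had an adjusted p of 0.0526. WNT10A, a Wnt ligand of skin appendages, was the strongest of 4 rises among 20 Notch and Wnt genes, at 119.8, 127 and 121 CPM in fPS 100, against 75.2, 67.4 and 71.2 CPM in fPS 25 (0.78 ± 0.08, adjusted p = 0.00014, edgeR). Those rises numbered 1 without fPS 25 replicate 1 or 2.

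Without replicate 3 of fPS 100 the falls over all genes numbered 1437, against 1067 with it. The number that fell without that replicate and with it was 7 and 1 of 26 proteasome genes, 8 and 2 of 24 splicing factors, 6 and 1 of 17 chaperones and 7 and 4 of 12 tubulins, but 0 and 0 of 32 cytosolic ribosomal proteins and 1 and 0 of 32 nuclear oxidative phosphorylation genes. These 6 lists were chosen after their values were seen.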
